A study of Mus musculus with 6 samples.

Results

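The adenylate kinase family was followed in mouse leukaemia cells by every probe set that the array's annotation names for a single family gene. Of 7 family genes listed (Ak1, Ak3, Ak4, Ak5, Ak6, Ak7 and Ak8), 6 had such a probe set. Ak4 had 2 and the others 1 each, which gave 7 of the 21789 single-symbol probe sets in the data, and 6 of 19938 genes. Ak6 had none, and 1 probe set listed for Ak6 together with another gene was not used. The family was singled out because an Ak4 probe set was known to be far lower in one group, so the members' differences between the groups are described here and not tested.

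All cells were pre-B cells of C57BL/6 mice that BCR-ABL1, the fused kinase of Philadelphia chromosome-positive leukaemia, had transformed, and all carried floxed alleles of Inpp5d (Inpp5d fl/fl). Inpp5d encodes SHIP1, a lipid phosphatase that removes a phosphate from the PI3K product PIP3. On 3 arrays the cells had been transduced with PMIP-CRE-ERT2, a Cre recombinase that tamoxifen switches on. On the other 3 they had been transduced with PMIP-ERT2, the tamoxifen-binding part without Cre. Both groups were given 4-hydroxytamoxifen at 0.5 µM, and RNA of puromycin-resistant cells was taken after 2 days. No group had Cre without floxed alleles or went without tamoxifen, so the effect of Cre and that of the floxed gene cannot be told apart. Nothing in the labels ties the 3 arrays of either group to separate cultures, so the p-values speak only for the variation among these samples, part of which may be technical.

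Adenylate kinases move a phosphate between adenine nucleotides, turning ATP and AMP into a pair of ADP molecules and back. Through this reaction a small loss of ATP becomes a larger rise of AMP, which the kinase AMPK senses. The family is divided by place in the cell. AK1 works in the cytosol, AK3 and AK4 in the mitochondrial matrix, AK5 mainly in neurons, and AK7 and AK8 in motile cilia and sperm tails. AK3 prefers GTP as phosphate donor, AK4 has little enzyme activity of its own, and the Ak4 gene is known to be switched on in hypoxia by the factor HIF.

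Values are log2 expression per probe set, so a difference of 1 is a doubling. The array medians over the whole table lay between 8.19 and 8.23 for ERT2 control and between 8.24 and 8.37 for Cre-ERT2. The array Cre-ERT2 3 correlated most closely with ERT2 control 3 (Pearson's r = 0.997 across probe sets, which are not independent) and not with an array of its own group. Inpp5d, whose probe set was not lower in the Cre-ERT2 arrays, had a log2 value of 13.35 ± 0.013 (SD, n = 3) there and 13.19 ± 0.020 (SD, n = 3) in the controls (limma adjusted p = 0.0948). The groups did not overlap, with Cre-ERT2 higher, and Inpp5d passed as higher in 2 of 17 other settings (adjusted p from 0.00598 to 0.637 over all 17). The sources used here do not say whether that probe set covers the floxed exons, and groups are named by their labels throughout. Of 9 pre-B markers on the array, 9 were above the yardstick for dim probe sets given in the next paragraph, and 0 passed limma's test (0 also at an unadjusted p under 0.05). Of the 29 markers of T and NK, myeloid, erythroid, stromal and motile ciliated cells, 8 were above it, and Lyz2, a myeloid lysozyme gene, was the only one that passed (0.79 ± 0.10, SE, or 1.73-fold higher). The groups did not overlap, with Cre-ERT2 higher, in 5 of 5 stromal and 3 of 7 myeloid markers. The same held for 1 of 7 T and NK, 1 of 3 erythroid and 1 of 7 ciliated cell markers. Of all single-symbol probe sets, 19.7% did so. That share moved with brightness, from 10.6% to 32.7% over 10 classes by mean value. An unadjusted p under 0.05 in limma's test was reached by 2 of the 5 stromal and 3 of the 7 myeloid markers. Of all probe sets, 27.5% reached it. The part of such cells in the members' differences was not tested.

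The 7 adenylate kinase probe sets fell into 3 kinds of signal. Array values carry no true zero, and probe sets of different genes bind with different strength, so their levels are not ranked against each other. As a yardstick for dim signal, the 1035 probe sets of olfactory receptor genes, which these cells are not known to use, had a median log2 value of 6.08 and a 95th percentile of 7.74. Ak3 was bright, with a mean of 11.56 over all 6 arrays. Ak1 (8.10) and both Ak4 probe sets (8.10 and 7.98) lay somewhat above the yardstick, the first Ak4 probe set (8.10) only through its control arrays. Ak5 (7.47), Ak7 (6.80) and Ak8 (6.85) lay below it, so their signal cannot be told from that of genes not known to be used.

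**Figure D1:**
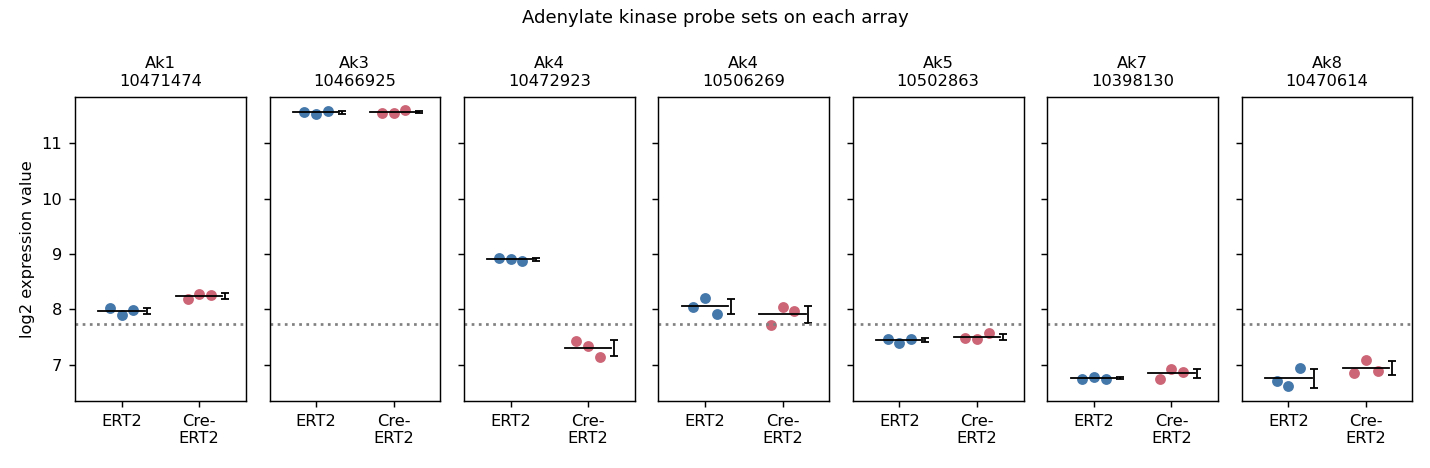
Log2 expression value (vertical axis) of each adenylate kinase probe set on the 3 ERT2 control and 3 Cre-ERT2 arrays; points are arrays, horizontal lines are group means, error bars are 1 SD, and the dotted line is the 95th percentile of olfactory receptor probe sets (7.74). Ak4 probe set 10472923 lies at 8.88 to 8.93 in the controls and at 7.14 to 7.42 in the Cre-ERT2 arrays, while the other 6 probe sets differ between groups by less than 0.3.

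The first Ak4 probe set, 10472923, was lower in every Cre-ERT2 array. Its log2 values were 8.93, 8.90 and 8.88 in control arrays 1, 2 and 3 and 7.42, 7.33 and 7.14 in Cre-ERT2 arrays 1 to 3. The groups were separated by a gap far wider than the spread inside either, and all 3 Cre-ERT2 values lay below the dim yardstick. The measured difference of group means was -1.61 ± 0.074 (SE), or 3.04-fold lower (7.30 against 8.90). Because the Cre-ERT2 values are no brighter than those of genes not known to be used, the size of the fall below the yardstick is not resolved. Down to the yardstick alone it is 1.16, or 2.24-fold. By measured values it was the third largest fall among all 21789 single-symbol probe sets, after Cdh1 (-2.0) and Rtn1 (-1.73) and before Emb (-1.38). In such bulk RNA, fewer cells that make a transcript and less transcript per cell cannot be told apart.

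The second Ak4 probe set, 10506269, did not share that fall. Its log2 values were 8.04, 8.20 and 7.92 in control arrays 1, 2 and 3 and 7.72, 8.03 and 7.96 in Cre-ERT2 arrays 1 to 3. The groups overlapped: Cre-ERT2 1 was the lowest array, while Cre-ERT2 2 and 3 both stood above ERT2 control 3. The difference was -0.15 ± 0.098 (SE), or 1.11-fold lower, with an SD of 0.14 in the controls and 0.16 in the Cre-ERT2 arrays. Without Cre-ERT2 1 it was -0.055, and without ERT2 control 2 it was -0.073.

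The differences of both Ak4 probe sets between the groups thus lay 1.46 apart on the log2 scale. Of 999 genes with more than 1 single-symbol probe set, none had probe sets that disagreed more: the median gap between the highest and the lowest probe set of a gene was 0.081, the 95th percentile was 0.365, and Ak4 was the 1 gene with a gap of 1 or more. Since the family was picked on the fall of the first Ak4 probe set, which enters this gap, the rank is description only.

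The 2 Ak4 probe sets also differ in what the platform tables tell of them. The annotation lists 8 transcript accessions for 10472923 and 6 for 10506269, and all 6 of the latter are among the former. Probe set numbers on this array mostly run along the genome: of 21697 neighbouring pairs of single-symbol probe sets matched to RefSeq genes (assembly GRCm38.p6), 94.3% were named for genes of one chromosome. Next to 10506269 by number stand the probe sets of Raver2 and Dnajc6, and Dnajc6 is the annotated gene beside Ak4. Next to 10472923 stand those of Cdca7 and Sp3os, which lie on a different chromosome from Ak4. They flank Ak3l2-ps, a RefSeq pseudogene of the adenylate kinase family, at 4 and 9 annotated genes' distance. Probe sequences were not used here, so whether 10472923 reads Ak4, the pseudogene or both was not tested. The probe sets next to it by number did not share its fall: Cdca7, a cell cycle gene, had a log2 difference of -0.073 (limma adjusted p = 0.321) and Sp3os, an antisense transcript, -0.044 (adjusted p = 0.638). Next to the other Ak4 probe set, Raver2 had 0.094 (adjusted p = 0.327), and Dnajc6, which encodes a co-chaperone of clathrin uncoating, rose by 0.32 ± 0.045 (SE, adjusted p = 0.0185).

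The region before Ak4's first start is shown because HIF is known to act on this gene. RefSeq (GRCm38.p6, plus strand) gives 4 starts for Ak4. The stretch of 250 bases before the first lies at chr4:101419039-101419288, and a window of 30 bases before the last lies at chr4:101419477-101419506. Capitals mark ACGTG or GCGTG, the core letters of hypoxia response elements, on either strand.
Ak4 first start: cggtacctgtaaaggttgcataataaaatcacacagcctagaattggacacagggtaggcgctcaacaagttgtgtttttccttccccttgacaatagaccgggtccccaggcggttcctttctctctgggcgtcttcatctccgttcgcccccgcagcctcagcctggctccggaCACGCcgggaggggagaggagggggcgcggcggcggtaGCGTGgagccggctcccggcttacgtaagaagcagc
Ak4 last start: tcccactctgccCACGTGcggggaccggca
ACGTG was found before 1 of the 4 Ak4 starts, where it overlaps its own reverse complement, and GCGTG before 3, whose windows largely overlap. Both are common: of 32851 promoters of the same length, 16.6% hold ACGTG and 28.2% hold GCGTG on either strand. ACGTG was also found before 1 of 4 starts of Ak1 and before none of the single starts listed for Ak3, Ak6, Ak7 and Ak8. GCGTG was found before 1 of 4 starts of Ak1 and before the single starts of Ak6 and Ak7. Neither run of letters thus sets Ak4 apart among the 6 family genes with a promoter sequence. Ak5 had none and was not compared. A match of letters is not a binding site.

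Ak3, the other matrix member, had closely similar values in both groups. Its log2 values were 11.57, 11.52 and 11.57 in control arrays 1, 2 and 3 and 11.55, 11.55 and 11.59 in Cre-ERT2 arrays 1 to 3. The groups overlapped, with an SD of 0.028 and 0.025. The difference was 0.0059 ± 0.046 (SE), and its sign turned in 4 of 16 other settings, within a range from -0.097 to 0.037. Some of the 16, such as the filters on dim probe sets, cannot change a difference of group means.

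Ak1, the cytosolic member, was higher in every Cre-ERT2 array. Its log2 values were 8.02, 7.90 and 7.99 in control arrays 1, 2 and 3 and 8.18, 8.28 and 8.26 in Cre-ERT2 arrays 1 to 3. The groups did not overlap, and the gap between them was wider than the SD of either (0.061 and 0.052). The difference was 0.27 ± 0.054 (SE), or 1.21-fold higher. Probe sets as bright as Ak1 were higher in the Cre-ERT2 arrays as a whole: in its brightness class, the fifth of 10 by mean value, the median difference was 0.115 and the 95th percentile 0.261. After cyclic loess between arrays, which fits such a trend, the difference of Ak1 was 0.18, and after quantile normalization 0.17.

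The 3 members with dim signal differed little. Ak5, the neuronal member, had log2 values of 7.46, 7.40 and 7.46 in control arrays 1, 2 and 3 and 7.48, 7.47 and 7.57 in Cre-ERT2 arrays 1 to 3. The groups stood apart by a very narrow gap, and the difference was 0.066 ± 0.051 (SE), smaller than the median of 0.108 in its brightness class. Leaving out 1 array gave 0.035 (without Cre-ERT2 3) to 0.083.

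Ak7, of motile cilia, had values of 6.74, 6.78 and 6.75 in control arrays 1, 2 and 3 and 6.75, 6.91 and 6.87 in Cre-ERT2 arrays 1 to 3. Cre-ERT2 1 lay among the controls, and the difference was 0.087 ± 0.057 (SE). Ak8, also of cilia, had 6.71, 6.61 and 6.94 in control arrays 1, 2 and 3 and 6.85, 7.09 and 6.89 in Cre-ERT2 arrays 1 to 3. ERT2 control 3 lay among the Cre-ERT2 values, and the difference was 0.19 ± 0.098 (SE). With 1 array left out, Ak7 ranged from 0.051 (without Cre-ERT2 2) to 0.14 (without Cre-ERT2 1), and Ak8 from 0.11 (without Cre-ERT2 2, or ERT2 control 2) to 0.28 (without ERT2 control 3). The median of the brightness class that holds both Ak7 and Ak8 was 0.0976. The signs of Ak5 and Ak7 turned under 3 of 3 other scalings (Ak5 from -0.044 to -0.036, Ak7 from -0.016 to -0.0082), while Ak8 stayed at 0.083 to 0.089. The motile cilia markers were dim as well: of 7, which include Foxj1, the master regulator of motile cilia, 0 lay above the yardstick. Their mean log2 value ranged from 7.29 to 7.35 over the controls and from 7.37 to 7.48 over the Cre-ERT2 arrays.

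**Figure D2:**
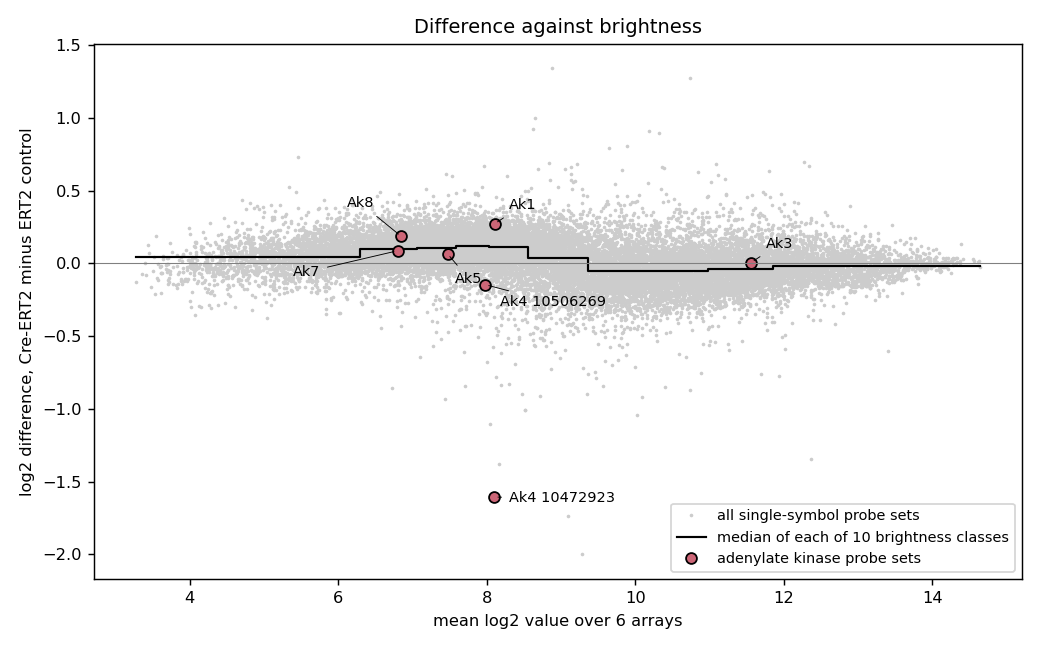
Log2 difference between Cre-ERT2 and ERT2 control means (vertical axis) against the mean log2 value over all 6 arrays (horizontal axis) for each single-symbol probe set (grey), with the adenylate kinase probe sets in red and the median of each of 10 brightness classes as a black line. The line stands at 0.115 in the class of Ak1 and at -0.0394 in that of Ak3, and Ak4 probe set 10472923 at -1.61 lies far below the cloud.

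Across the family, 3 of 7 probe sets did not overlap between the groups, 1 lower (Ak4 10472923) and 2 higher (Ak1 and Ak5), where 33.7% of all single-symbol probe sets did not overlap (14.0% lower and 19.7% higher). In limma's fit over all 21789 probe sets, 1 of 7 members passed an adjusted p of 0.05, where 1.72% of all did (0.987% lower and 0.734% higher). Since the family was picked on this contrast, nothing is read from either count. The median difference of the 7 was 0.066, against 0.042 over all probe sets. The family's one large difference was that of a single probe set.

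**Figure D3:**
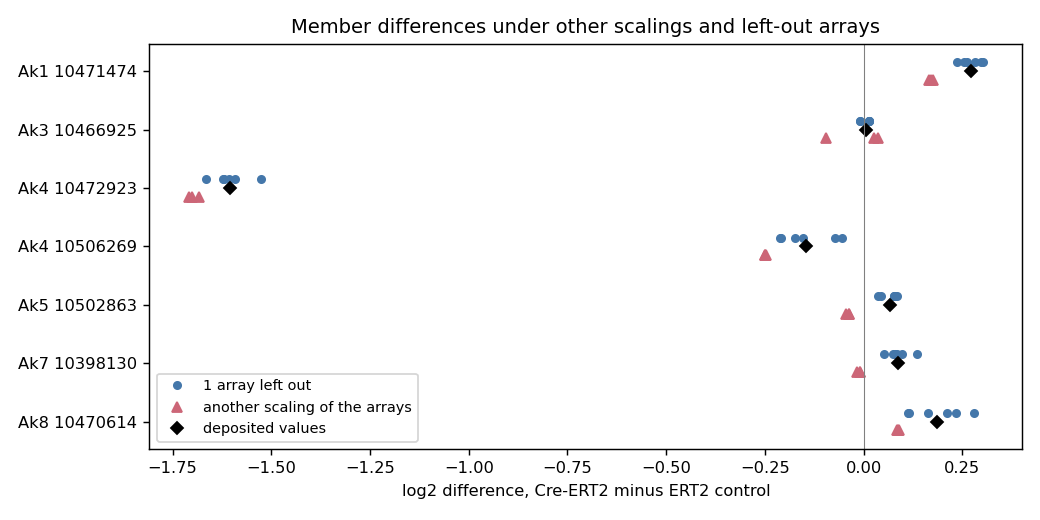
Log2 difference between Cre-ERT2 and ERT2 control means (horizontal axis) of each adenylate kinase probe set with the deposited values (black), with 1 array left out (blue, 6 fits each) and under 3 other scalings of the arrays (red). Ak4 10472923 stays between -1.71 and -1.53 and Ak4 10506269 between -0.25 and -0.055, while Ak3, Ak5 and Ak7 lie on both sides of 0.

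The probe sets whose profile over the 6 arrays was nearest to Ak4 10472923, by the root-mean-square difference of mean-centred log2 values, were those of Rtn1 (0.133), Scd1 (0.166), Emb (0.206), Cdh1 (0.216) and Mir19a (0.337). All 5 are themselves among the largest falls, with differences from -2.0 to -1.10, and the measure takes size into account. Rtn1 encodes a protein that shapes the endoplasmic reticulum, and Scd1 the desaturase that makes monounsaturated fatty acids. Rtn1 fell from 9.97 in the controls to 8.23 in the Cre-ERT2 arrays, and Scd1 from 13.03 to 11.69 (limma adjusted p = 1.95e-05 and 2.13e-05). Nearest to Ak4 10506269 were Npl (0.0467), Olfr798 (0.0471), Klrg1 (0.0477), Olfr1424 (0.0516) and Sbp (0.0543). None of these passed (adjusted p from 0.194 to 0.325), and all 5 had a mean below the dim yardstick, between 4.52 and 7.66.

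Among genes around adenylate kinase, 5 probe sets of known HIF targets passed as lower in the Cre-ERT2 arrays in the main limma fit. In that fit, with the deposited values and no filter, none of the other 4 lists had a probe set that passed. Some did with trend and robust estimation or with array weights. The 5 lists held 107 probe sets of 94 genes. The list of other nucleotide kinases also holds nucleoside kinases, such as thymidine kinases, and creatine kinases. Of its 23 probe sets 0 were higher and 0 lower by limma, with a median difference of -0.039. An unadjusted p under 0.05 was reached by 6 of the 23, where 27.5% of all probe sets did so. The smallest p was that of Nme4, which encodes a mitochondrial nucleoside diphosphate kinase (-0.23 ± 0.051, SE, adjusted p = 0.0636). AMPK, which responds to the AMP that adenylate kinases make, and its upstream kinases had 15 probe sets. Of these 0 passed (4 at an unadjusted p under 0.05), with a median of 0.013. Stradb, which encodes a pseudokinase partner of the AMPK kinase LKB1, came nearest (-0.23 ± 0.069, SE, adjusted p = 0.103).

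Adenine nucleotide breakdown and salvage had 21 probe sets, of which 0 passed (6 at an unadjusted p under 0.05), with a median of -0.059. Adssl1, which encodes an adenylosuccinate synthase on the way to AMP, had -0.26 ± 0.053 (SE, adjusted p = 0.0554). The list of mitochondrial adenine nucleotide carriers and porins also holds a phosphate carrier and a peroxisomal carrier. Many of its members bring ATP and ADP across the mitochondrial membranes. It had 18 probe sets, 2 of them with identical values for Vdac3. By limma 0 passed (6 at an unadjusted p under 0.05), and the median was -0.040. Vdac2, a porin gene, had -0.23 ± 0.051 (SE, adjusted p = 0.0639). In 11 of these 18 the groups did not overlap with Cre-ERT2 lower and in 2 with Cre-ERT2 higher. Over all probe sets 14.0% and 19.7% did so. Several of the 11 are repeat probe sets of the same gene. Brightness moves with this count: 13 of the 18 lie in classes 7 to 10, where 25.1% to 30.2% were lower without overlap. Lower and higher counts were 6 and 1 of 21 for breakdown and salvage. They were 6 and 3 of 23 for other nucleotide kinases and 3 and 3 of 15 for AMPK. Of the carriers and porins, 5 passed as lower with the filter at the 50th percentile, 6 with arrays centred on their medians, 6 with trend and robust estimation and 0 after cyclic loess. With array weights 2 of them passed as lower. In that setting AMPK had 1 higher, breakdown and salvage 1 higher and 1 lower, and other nucleotide kinases 1 lower. Under other processing, Nme4 passed in 5 of 17 settings, Stradb in 2 of 17, Adssl1 in 6 of 17 and Vdac2 in 6 of 16, each in the same downward direction.

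Of 30 probe sets of 25 known HIF targets, 5 were lower, 0 higher and 25 did not pass, against 0.987% of all probe sets lower, with a median of -0.165 against 0.042 over all. In 19 of the 30, 2 of them with identical values for Pgk1, the groups did not overlap with Cre-ERT2 lower, where 14.0% of all probe sets did so. Brightness moves with this count: 21 of the 30 lie in classes 7 to 10, where 25.1% to 30.2% of probe sets did so and class medians ran from -0.0544 to -0.0156. Taken from the median of its own brightness class, the list's median difference was -0.154. Slc16a3, the lactate exporter, fell by 0.49 ± 0.048 (SE, limma adjusted p = 0.00645) and Aldoc, an aldolase gene, by 0.44 ± 0.060 (adjusted p = 0.0175). Bnip3, which encodes a mitochondrial autophagy receptor, fell by 0.40 ± 0.071 (adjusted p = 0.0401), and its second probe set, named here after its value was seen, by 0.32 (adjusted p = 0.0496). Pdk1, which encodes a kinase that inhibits pyruvate dehydrogenase, fell by 0.29 ± 0.051 (adjusted p = 0.0428). Among the 25 that did not pass, the glucose transporter gene Slc2a1 had -0.25 (adjusted p = 0.0513), Ankrd37 -0.27 (0.0667) and the oxygen sensor gene Egln1 -0.20 (0.0732), each without overlap. Vegfa, a growth factor gene for vessels, had -0.034 (0.646), Car9, a carbonic anhydrase gene, -0.044 (0.527) and Egln3, another oxygen sensor gene, 0.10 (0.297). These 6 were picked after their values were seen. With ERT2 control array 1 left out 0 of the 30 probe sets passed, with ERT2 control 2, ERT2 control 3, Cre-ERT2 1 or Cre-ERT2 2 left out 1 did, and with Cre-ERT2 3 left out 5 did; with the replicate number as a block 0 did. The count was 11 with a filter on dim probe sets at the 25th percentile and 16 with arrays centred on their medians. The list's median stayed between -0.178 and -0.129 in the 6 fits with an array left out.

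**Figure D4:**
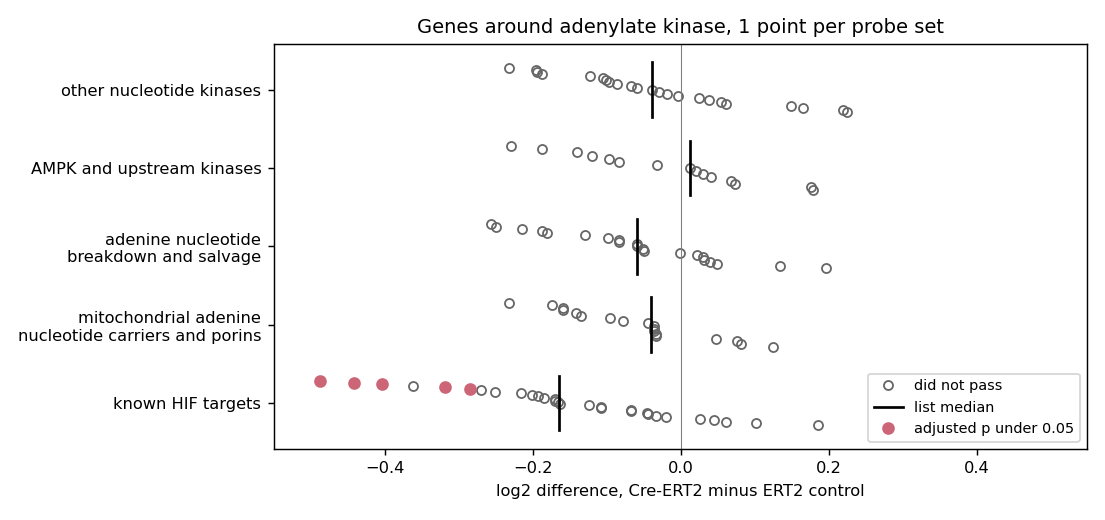
Log2 difference between Cre-ERT2 and ERT2 control means (horizontal axis) of every probe set in 5 gene lists around adenylate kinase (rows); filled points passed limma at an adjusted p under 0.05, open points did not, and bars are list medians. The filled points are 5 probe sets of HIF targets, all below 0, and the other 4 lists have medians between -0.059 and 0.013.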

How the data were processed

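The values are log2 expression per probe set, 1 value per array, as the authors deposited them; per the submitters' processing notes RMA and Partek 6.5 were used, with no order or settings stated, and the sources used here do not name the genome build. Probe sets were named through the platform annotation (21789 with 1 symbol, 1621 with several, 12146 not named). Probe-level files were not used here, and array values carry no count depth, so the number of arrays (3 a group) limits the precision.

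The groups, taken from the labels, were compared as Cre-ERT2 minus ERT2 control with limma 3.58.1 in R 4.3.3 (lmFit, eBayes, two-sided, Benjamini-Hochberg over all 21789 single-symbol probe sets, threshold 0.05), without a filter on dim probe sets so that every member kept a value; 5 of 7 members would pass a filter at the 25th percentile. SEs are those of the fit. An exact permutation test of 3 against 3 arrays cannot reach 0.05.

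Members and gene lists were chosen with earlier results of these data known. Named genes are all member probe sets, Inpp5d, up to 4 probe sets per list that passed (else the one with the smallest p), and the 5 nearest profiles of each Ak4 probe set, leaving out clone and predicted names. Outside this rule, and chosen after their values were seen, are the probe sets next to Ak4's by number, a second Bnip3 probe set, 6 further HIF targets, Lyz2 and the genes that rank beside Ak4. On simulated data for this comparison over 21789 probe sets, 69% of 100 probe sets changed by 0.5 and 95% of 100 changed by 1 were recovered, with 10 false calls. Same-numbered arrays did not deviate together (correlations of deviations 0.054, -0.097 and -0.29), so numbers were not taken as pairs. For arrays of unlike number the correlations ran from -0.239 (Cre-ERT2 2 with ERT2 control 1) to 0.32 (Cre-ERT2 2 with ERT2 control 3). Whether arrays of both groups share a batch was not tested. Alternatives were filters, other feature sets, scalings, variance models, a replicate block, a threshold of 0.01 and each array left out. Tables and figures used Python 3.11.15, pandas 2.3.3 and matplotlib 3.10.9.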

Additional observations from a re-analysis of the deposited data

How the results depend on the processing

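The count of probe sets called depended on the processing: from 375 it became 1121 and 1608 with filters on dim probe sets at the 25th and 50th percentile, 20 over every probe set of the table, 2095 after centring on the medians, 611 after cyclic loess, 1864 with trend and robust estimation, 1847 with array weights, 44 with the replicate block and 41 at a threshold of 0.01. It was 34, 65 and 75 without ERT2 control 1, 2 or 3, and 50, 150 and 1505 without Cre-ERT2 1, 2 or 3. Centring moved the median difference of all probe sets from 0.042 to -0.061, with 7.64% of calls higher in place of 42.7%. In the same order, the 5 pathway list probe sets called became 14, 22, 0, 33, 6, 23, 18, 0 (replicate block) and 1 (threshold 0.01), and from 0 to 8 with an array left out. Of the adenylate kinase probe sets, 2 in place of 1 were called with the filter at the 25th percentile, with 1 probe set per gene, with the mean of a gene's probe sets, with trend and robust estimation and with array weights, and 0 with the filter at the 50th percentile, which keeps only Ak3. The cause was not tested.

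Ak4 10472923 kept its sign in all 15 settings that kept it on its own (from -1.71 to -1.53, and from -1.67 to -1.53 with an array left out), as did Ak4 10506269 in 14 (from -0.25 to -0.055, and from -0.21 to -0.055 with an array left out). The mean of both probe sets gave -0.88 for either. The filters, the wider or narrower sets of probe sets, trend and robust estimation and the replicate block cannot change a difference of group means. Only the scalings, array weights and left-out arrays can turn the sign of a single probe set. Background correction and summarization of probes were not varied.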
